A study of Mus musculus with 8 samples.

Results

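The tumour suppressor p53 (gene symbol Trp53), its inhibitors Mdm2 and Mdm4, and 7 further genes that p53 is known to switch on (Cdkn1a, Ccng1, Sesn2, Phlda3, Zmat3, Trp53inp1 and Aen) were examined in splenic B cells of transgenic mice. The 10 genes were taken by symbol from the 24902 symbols of a bulk RNA-seq count matrix. All 10 had a value in each of the 8 libraries, as had 14072 symbols in all, and all 10 were among the 13173 genes that passed the expression filter and were tested.

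The study followed PRMT5, an arginine methyltransferase, in B-cell leukemia and its transformation to aggressive lymphoma. RNA was taken from pan-B cells isolated from the spleen when mice met early removal criteria (ERC), the health endpoint at which an animal is taken off study. The strain label of the mice was C57BL/6N, and no ages were given in the labels. Eµ-PRMT5 mice (n = 4) carry human PRMT5 under a VH promoter and the IgH Eµ enhancer, which direct it to B cells. Eµ-TCL1 mice (n = 1 here) carry the TCL1 oncogene under the same kind of control and are an established model of chronic lymphocytic leukemia. Eµ-PRMT5/TCL1 mice (n = 3) carry both transgenes from a cross of those lines. WT mice were not analysed here, so each comparison is between transgenic genotypes. The label of Eµ-PRMT5 mouse 2 names a founder animal, that of the line which the study chose to characterize in full. The lines of the other mice of that genotype are not stated in the labels. The study describes tumours of that genotype as varied, some with anaplastic large lymphocytes and histiocytes and another with sheets of small lymphocytes. Going by the animal numbers in their labels, Eµ-PRMT5 mouse 3 was of the former kind and mouse 4 of the latter. Whether tumour type had a part in the spread between mice of that genotype was not tested.

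The p53 protein is held low in unstressed cells by Mdm2, a ubiquitin ligase that marks it for degradation, and by Mdm4, a relative that masks its activation domain. DNA damage, oncogene activity and other stress release p53, which then binds its response element near target genes, Mdm2 among them, so that the system limits itself. The level of Trp53 mRNA is therefore a poor guide to p53 activity, and the mRNA of its targets is the usual readout. PRMT5 is known to methylate p53 and components of the splicing machinery, and splicing of Mdm4 is known to be sensitive to PRMT5. The gene counts used here do not separate Mdm4 isoforms.

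The p53 response element is a unit of 10 letters that occurs as a pair. It was searched, by its usual description and with no spacer, in promoter windows of 300 bases (250 before to 50 after each RefSeq start, GRCm38.p6), allowing 3 mismatches in 20 letters but none at the C and G in the core of each unit. Of 32851 windows, 1.38% held such a match on either strand. Of the 10 genes, 8 had at least 1 window, Zmat3 and Trp53inp1 being those without, and the windows of Trp53, Cdkn1a, Ccng1 and Aen held a match. Cdkn1a and Ccng1 came within 1 mismatch of the element, as did 0.067% of windows (22 of 32851). The 4 matches are shown because they are the stretches of these promoters closest to the letters that p53 binds. Capitals mark the match, and the flanks are in lower case. The Cdkn1a match lay on the + strand at chr17:29090928-29090947, within chr17:29090898-29090977. The Ccng1 match lay on the - strand at chr11:40755462-40755481, within chr11:40755432-40755511. The Trp53 match had 3 mismatches and lay on the + strand at chr11:69580284-69580303, within chr11:69580254-69580333. The Aen match had 3 mismatches too and lay on the + strand at chr7:78895937-78895956. It lay past the first start of that gene but began 121 bases before a second start, and is given without flanks.
Cdkn1a: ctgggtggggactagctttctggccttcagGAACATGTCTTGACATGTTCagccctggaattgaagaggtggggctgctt
Ccng1: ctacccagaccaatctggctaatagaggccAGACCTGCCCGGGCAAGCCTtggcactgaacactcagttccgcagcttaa
Trp53: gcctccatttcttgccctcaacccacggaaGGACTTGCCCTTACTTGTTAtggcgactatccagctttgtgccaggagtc
Aen: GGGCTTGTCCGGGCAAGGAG
A match describes letters only and does not show binding. The windows of Mdm2, Mdm4, Phlda3 and Sesn2, and that of a second start of Cdkn1a, held none, which says only that these letters are not within those 300 bases.

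Libraries held 3356297 to 10252426 counts. The lowest count of any of the 10 genes in any library was 22 (Phlda3), and apart from Phlda3 it was 75 (Cdkn1a). All 7 B-cell markers were detected, with a summed level of 1899 to 6649 CPM (counts relative to library size, with TMM normalization) in the Eµ-PRMT5 group, 3441 to 8482 CPM in the Eµ-PRMT5/TCL1 group and 4746 CPM in the Eµ-TCL1 mouse. The lowest of these sums was in Eµ-PRMT5 mouse 4. Transcripts of neutrophils were present too, the 8 markers summing to 421 to 5219 CPM, 642 to 8997 CPM and 587 CPM in the same order, and they exceeded the B-cell sum in Eµ-PRMT5 mouse 4 as well as in Eµ-PRMT5/TCL1 mouse 1. T-cell markers (4 of 6 tested) summed to 192 to 705 CPM, macrophage markers (3 of 6) to 133 to 702 CPM and erythroid markers (2 of 5) to 4.91 to 47.6 CPM over the 8 libraries, with Klf1 at 0 counts in Eµ-PRMT5 mouse 1. At an unadjusted p under 0.05 (edgeR), 2 T-cell markers were lower and 1 neutrophil marker higher in the double transgenic than in the Eµ-PRMT5 animals, and 2 neutrophil markers and 1 macrophage marker higher in Eµ-PRMT5/TCL1 animals than in the Eµ-TCL1 mouse, none past the adjusted threshold. Of all genes, 2.17% and 6.09% reached that unadjusted threshold in the same 2 comparisons. In bulk RNA, fewer cells of a type and less RNA per cell cannot be told apart.

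No member of the p53 group differed between genotypes past an adjusted p of 0.05 (edgeR quasi-likelihood test, Benjamini-Hochberg adjustment over 13173 genes). What the 10 genes did show was a contrast in how they varied between mice of the same genotype. Trp53 itself was among the steadiest genes measured, whereas its targets Cdkn1a and Sesn2 were among the most variable. Mdm2, Cdkn1a, Ccng1 and Sesn2 tended to be high or low in the same mice, a grouping made from these same values. The other targets, Phlda3, Zmat3, Trp53inp1 and Aen, followed Cdkn1a loosely or not at all (Pearson r of log2 CPM = -0.03, -0.23, 0.30 and 0.07).

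**Figure D1:**
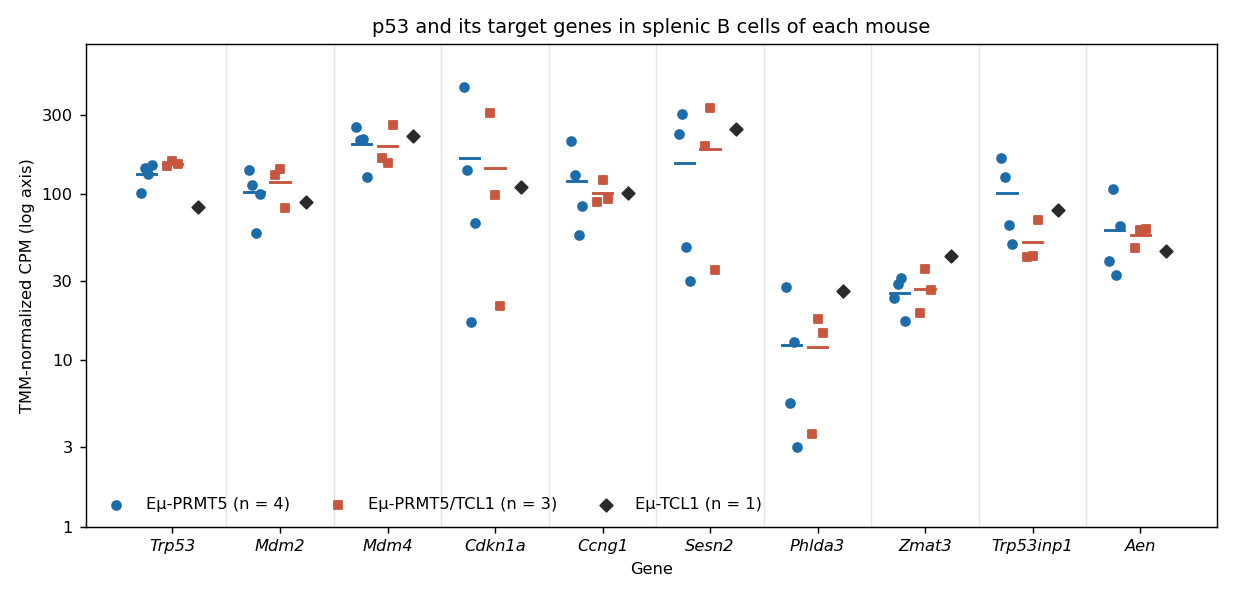
TMM-normalized CPM (log axis) of each of the 10 genes, with 1 point per mouse (Eµ-PRMT5 circles, n = 4; Eµ-PRMT5/TCL1 squares, n = 3; Eµ-TCL1 diamond, n = 1) and a bar at the mean of each replicated group. Trp53 lies between 83.8 and 159 CPM, while Cdkn1a runs from 17.1 to 440 CPM, with both extremes among the Eµ-PRMT5 mice.

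Trp53 (chromosome 11 of GRCm38, 69580359 to 69591873, + strand) measured 102, 144, 133 and 150 CPM in Eµ-PRMT5 mice 1 to 4. It measured 147, 159 and 152 CPM in Eµ-PRMT5/TCL1 mice 1 to 3, while the Eµ-TCL1 mouse had 83.8 CPM. The Eµ-TCL1 mouse was the lowest of the 8, and the replicated genotypes overlapped through Eµ-PRMT5 mouse 4. The means were 132 ± 21.6 CPM (SD, n = 4) for Eµ-PRMT5 and 153 ± 6.39 CPM (SD, n = 3) for Eµ-PRMT5/TCL1, a log2 fold change of 0.20 (SE 0.30, edgeR adjusted p = 1.0). Trp53 was higher than in the Eµ-TCL1 mouse by 0.66 (SE 0.46, edgeR adjusted p = 0.734) on the log2 scale in Eµ-PRMT5 and by 0.86 (SE 0.48, edgeR adjusted p = 0.778) in Eµ-PRMT5/TCL1 mice. Every mouse of either genotype lay above it with TMM factors. With library size only, Eµ-PRMT5 mouse 1, at 92.0 CPM, fell below the Eµ-TCL1 mouse, at 97.1 CPM. A single Eµ-TCL1 animal places that animal and not its genotype.

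The SD of log2 CPM within genotypes was 0.199 for Trp53, against a median of 0.60 over all genes tested. That put Trp53 at percentile 1.7 of all genes, and at percentile 3.8 of the 500 genes on either side of it in mean level. Leaving out each replicated mouse in turn moved the first of these between 0.10 and 6.2. Without Eµ-PRMT5 mouse 1, the lowest of the replicated mice, the SD fell to 0.076.

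Mdm2 (chromosome 10, 117688875 to 117710758, - strand), the ligase that degrades p53 and itself a p53 target, measured 139, 114, 58.6 and 100 CPM in Eµ-PRMT5 mice 1 to 4. It measured 130, 142 and 82.8 CPM in Eµ-PRMT5/TCL1 mice, and in the Eµ-TCL1 mouse 89.8 CPM. Mouse 3 was the lowest in each replicated genotype, and all groups overlapped. The means of 103 ± 33.8 CPM (SD, n = 4) and 118 ± 31.4 CPM (SD, n = 3) differed by 0.20 on the log2 scale (SE 0.36, edgeR adjusted p = 1.0).

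Mdm4 (chromosome 1, 132959484 to 133030561, - strand), the inhibitor that masks the p53 activation domain, measured 252, 211, 215 and 127 CPM in Eµ-PRMT5 mice. In Eµ-PRMT5/TCL1 mice it measured 165, 155 and 261 CPM, and in the Eµ-TCL1 mouse 224 CPM. The genotypes overlapped over nearly their whole range, with means of 201 ± 53 CPM (SD, n = 4) and 194 ± 58.7 CPM (SD, n = 3) and a log2 fold change of -0.057 (SE 0.36, edgeR adjusted p = 1.0). The inhibitors did not move as a pair across mice (Pearson r = -0.29 over 8 libraries). Mdm4 instead followed the B-cell marker sum (r = 0.81) and went against the neutrophil sum (r = -0.71), and the part of cell makeup in its level was not tested.

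Cdkn1a (chromosome 17, 29090976 to 29100727, + strand) encodes p21, the inhibitor of cyclin-dependent kinases through which p53 stops the cell cycle. It measured 440, 139, 17.1 and 66.9 CPM in Eµ-PRMT5 mice 1 to 4, from counts of 2167, 878, 75 and 580. It measured 309, 98.2 and 21.4 CPM in Eµ-PRMT5/TCL1 mice 1 to 3, while the Eµ-TCL1 mouse had 111 CPM. Mouse 1 was high and mouse 3 low in both replicated genotypes, a shared number that marks different animals. The highest library held 25.7 times the lowest, both of them Eµ-PRMT5. The means of 166 ± 189 CPM (SD, n = 4) and 143 ± 149 CPM (SD, n = 3) carried SDs as large as themselves, and the log2 fold change was -0.22 (SE 0.93, edgeR adjusted p = 1.0). It became 0.95 (SE 0.84) without Eµ-PRMT5 mouse 1 and 0.30 (SE 0.92) without Eµ-PRMT5/TCL1 mouse 3, so the sign rested on single animals. Cdkn1a shares 273 exonic bases with AC167363.2 on the other strand, and whether reads were counted by strand is not given in the sources used here.

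Ccng1 (chromosome 11, 40748552 to 40755311, - strand) encodes cyclin G1, which acts with the phosphatase PP2A on Mdm2. It measured 208, 131, 57.0 and 84.5 CPM in Eµ-PRMT5 mice. Double transgenic mice had 89.8, 122 and 93.7 CPM, and the Eµ-TCL1 mouse had 102 CPM. Eµ-PRMT5 mice 1 and 3 were the highest and lowest of all 8, and the other genotypes fell between them. The means were 120 ± 66.0 CPM (SD, n = 4) and 102 ± 17.7 CPM (SD, n = 3), with a log2 fold change of -0.24 (SE 0.42, edgeR adjusted p = 1.0).

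Sesn2 (chromosome 4, 132492032 to 132510501, - strand) encodes a sestrin, a stress protein that restrains mTORC1 and is induced by ATF4 as well as by p53. It measured 230, 304, 47.9 and 29.9 CPM in Eµ-PRMT5 mice. In the double transgenic mice it measured 195, 330 and 35.2 CPM, and in the Eµ-TCL1 mouse 245 CPM. The values fell into a high and a low set with a gap between 47.9 and 195 CPM, and each replicated genotype had mice in both. The means of 153 ± 135 CPM (SD, n = 4) and 187 ± 148 CPM (SD, n = 3) gave a log2 fold change of 0.29 (SE 0.79, edgeR adjusted p = 1.0). This became -0.41 (SE 0.90) without Eµ-PRMT5/TCL1 mouse 2.

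**Figure D2:**
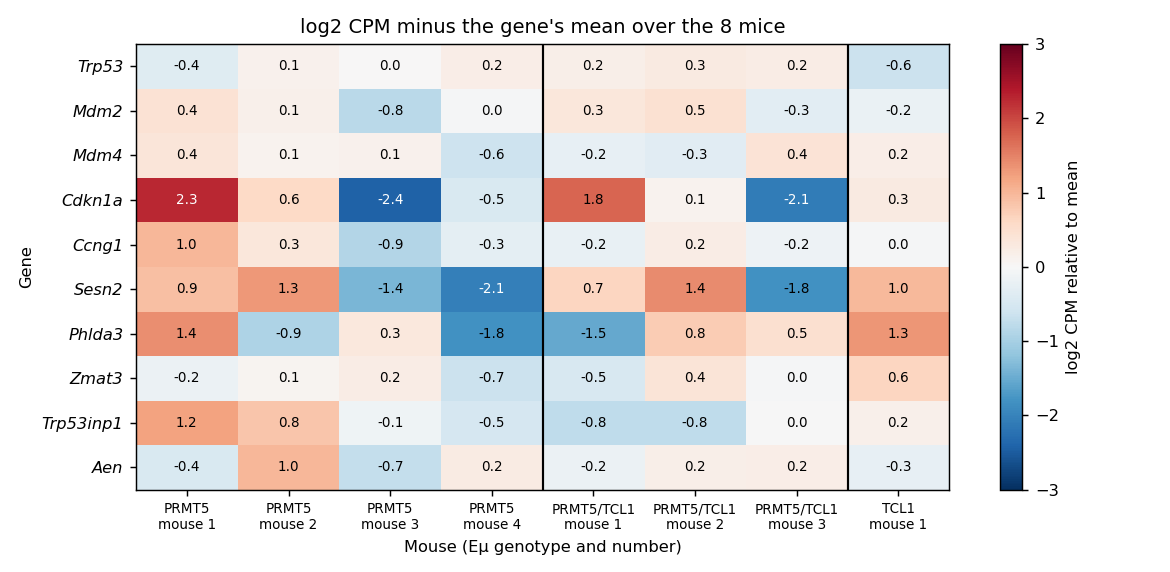
Level of each gene in each mouse as log2 CPM minus the mean of that gene over the 8 mice, with genotypes separated by black lines, red above and blue below the mean. Cdkn1a and Sesn2 hold the deepest colours, both are low in mouse 3 of each replicated genotype, and the row of Trp53 is pale throughout.

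Phlda3 (chromosome 1, 135766119 to 135769136, + strand) encodes a protein that competes with Akt for membrane lipids. It measured 27.8, 5.54, 13 and 3.00 CPM in Eµ-PRMT5 mice. The Eµ-PRMT5/TCL1 values were 3.61, 17.7 and 14.6 CPM, and that of the Eµ-TCL1 mouse 26.2 CPM. The replicated genotypes covered each other, with means of 12.3 ± 11.2 CPM (SD, n = 4) and 12.0 ± 7.42 CPM (SD, n = 3) and a log2 fold change of -0.032 (SE 0.75, edgeR adjusted p = 1.0).

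Zmat3 (chromosome 3, 32334792 to 32366014, - strand), an RNA-binding zinc finger protein, measured 23.9, 28.7, 31.5 and 17.2 CPM across Eµ-PRMT5 mice 1 to 4. It measured 19.2, 35.5 and 26.4 CPM in Eµ-PRMT5/TCL1 mice. The Eµ-TCL1 mouse, at 42.2 CPM, was the highest of the 8. The log2 fold change was 0.097 (SE 0.40, edgeR adjusted p = 1.0) between the replicated genotypes, -0.74 (SE 0.55, edgeR adjusted p = 0.745) for Eµ-PRMT5 and -0.64 (SE 0.58, edgeR adjusted p = 0.824) for Eµ-PRMT5/TCL1 against that mouse.

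Trp53inp1 (chromosome 4, 11156431 to 11174379, + strand) encodes a stress protein that promotes p53 phosphorylation and autophagy. It measured 164, 126, 65.0 and 49.9 CPM in Eµ-PRMT5 mice. Mice with both transgenes had 42.1, 42.3 and 70.2 CPM, and the Eµ-TCL1 mouse had 79.8 CPM. The double transgenic mice lay at the lower end, but mouse 3 of that genotype lay above Eµ-PRMT5 mice 3 and 4. The means were 101 ± 53.4 CPM (SD, n = 4) and 51.6 ± 16.2 CPM (SD, n = 3), and the log2 fold change of -0.97 (SE 0.45) had the smallest unadjusted p of the 10 (0.0498 from edgeR, adjusted p = 1.0). Across the 8 libraries Trp53inp1 went against the macrophage marker sum (r = -0.87, rho = -0.97), which ran from 133 to 397 CPM in Eµ-PRMT5 and from 274 to 702 CPM in Eµ-PRMT5/TCL1 mice. The part of macrophage RNA in this difference was not tested.

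Aen (chromosome 7, 78895854 to 78911209, + strand), a nuclease that acts in apoptosis, measured 39.6, 107, 32.8 and 64.1 CPM in Eµ-PRMT5 mice. The 3 Eµ-PRMT5/TCL1 mice had 47.5, 61.2 and 61.8 CPM, and the Eµ-TCL1 mouse had 45.4 CPM. Eµ-PRMT5 mouse 2 was well above the others, and the groups overlapped. The means of 61.0 ± 33.8 CPM (SD, n = 4) and 56.8 ± 8.05 CPM (SD, n = 3) gave a log2 fold change of -0.10 (SE 0.42, edgeR adjusted p = 1.0).

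The counts over the 10 genes were read against those over all genes tested. Between the replicated genotypes, 0 of 10 passed the adjusted threshold, as did 0% of all genes, and 1 of 10 (Trp53inp1, lower) had an unadjusted p under 0.05 against 2.17% of all genes. None of the 10 had every double transgenic mouse above (1.35% of all genes) or below (1.59% of all genes) every Eµ-PRMT5 mouse. Their median log2 fold change was -0.044, and that of all genes -0.093. DESeq2 passed 4 genes of the whole table at the adjusted threshold, and none of the 10.

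For Eµ-PRMT5 mice against the Eµ-TCL1 mouse, 0 of 10 passed at the adjusted threshold (0% of all genes) and 0 of 10 at the unadjusted one (6.78% of all genes). With TMM factors, though not with library size only, Trp53 was higher in every Eµ-PRMT5 mouse, as were 17.9% of all genes. Zmat3 was lower in every one on both scales, as were 24.4% of all genes with TMM factors. With library size only, Mdm4 and Phlda3 were lower in every Eµ-PRMT5 mouse too, and the share of all genes was not taken on that scale. For Eµ-PRMT5/TCL1 mice against the Eµ-TCL1 mouse the counts were again 0 of 10 adjusted (0% of all genes) and 0 of 10 unadjusted (6.09% of all genes). Here Trp53 and, with TMM factors only, Aen were higher in all 3 mice, as were 27.6% of all genes, and Phlda3, Zmat3 and Trp53inp1 lower in all 3, as were 39% of all genes. The median over the 10 genes was 0.22 in the former and -0.11 in the latter of these comparisons, against 0.042 and -0.073 for all genes. Both use the same Eµ-TCL1 animal, so their values are not independent. DESeq2 passed 18 and 16 genes at the adjusted threshold, with none of the 10 among them.

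**Figure D3:**
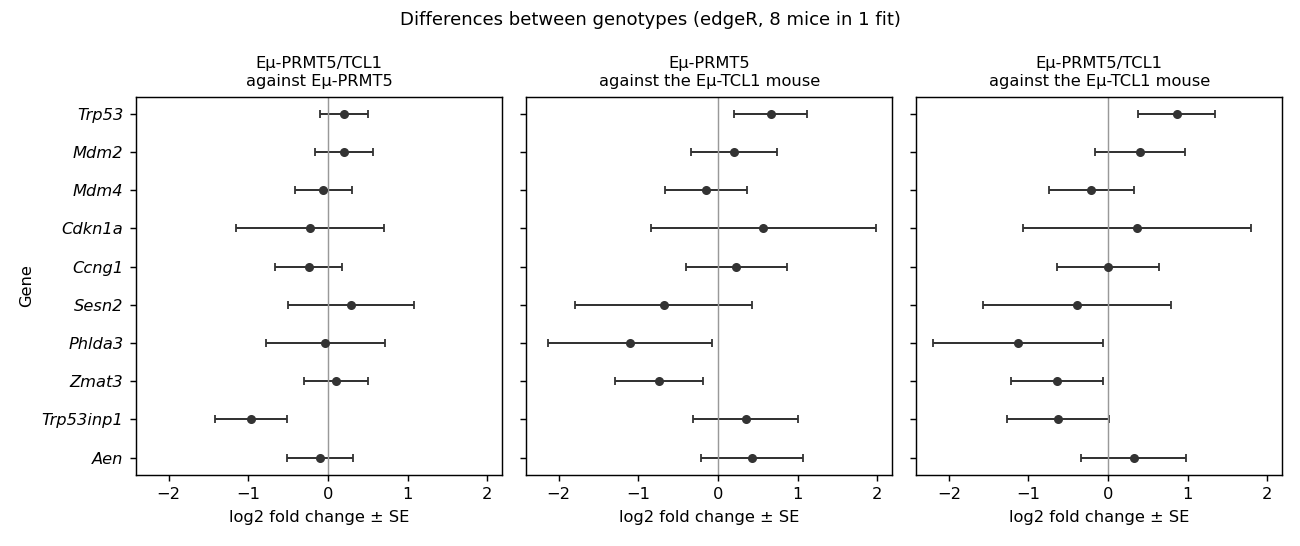
Log2 fold change with its standard error (bars) for each gene in the 3 comparisons, from a single edgeR fit over the 8 mice, with positive values higher in the genotype named first. Trp53inp1 at -0.97 between the replicated genotypes, and Trp53 at 0.66 and 0.86 against the Eµ-TCL1 mouse, lie farther from 0 than their bars, as do Phlda3 and Zmat3 against that mouse, and the bars of Cdkn1a and Sesn2 are the widest of the left panel.

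Standard errors in that plot follow the spread between mice. Cdkn1a, with an SD of log2 CPM within genotypes of 1.94, lay at percentile 99.5 of all genes tested, and Sesn2, at 1.66, at percentile 98.4. Without each replicated mouse in turn these ranged from 98.3 to 99.8 and from 95.7 to 98.9. Phlda3 followed at an SD of 1.29 and percentile 94.2. The other 6 targets and inhibitors were ordinary, from Zmat3 (SD 0.404, percentile 22.3) to Trp53inp1 (SD 0.674, percentile 59.4), with Mdm4 at 0.423, Mdm2 at 0.490, Aen at 0.605 and Ccng1 at 0.640.

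**Figure D4:**
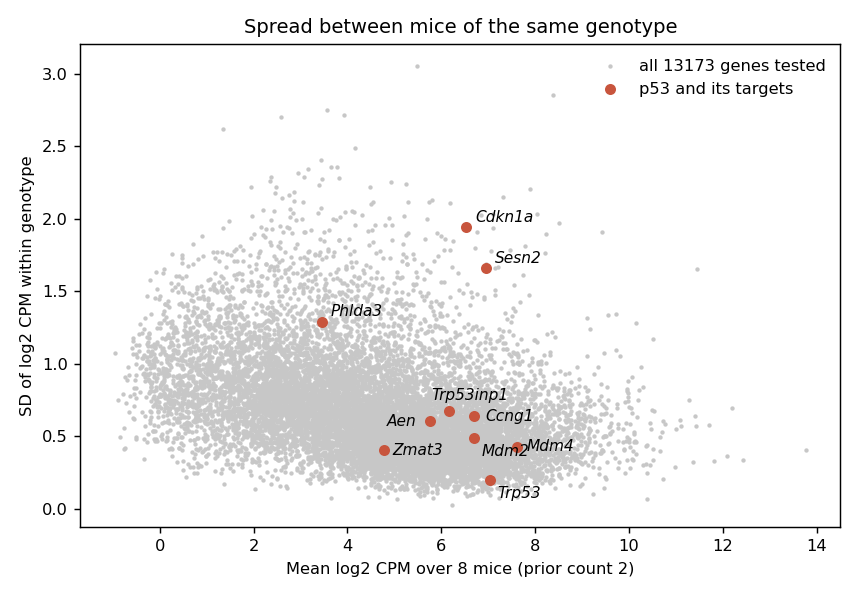
SD of log2 CPM between mice of the same genotype against mean log2 CPM over the 8 mice (prior count 2), for the 13173 genes tested (grey) and the 10 genes of the p53 group (labelled). Cdkn1a (1.94) and Sesn2 (1.66) lie at the top of the cloud for genes of their level and Trp53 (0.199) at its lower edge.

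Levels of different genes were compared as CPM per kilobase of exon (GENCODE vM21 lengths), averaged over the 8 mice. Sesn2 (51.0 CPM per kb) and Cdkn1a (42.3) headed the order, ahead of Trp53 (33.1), Ccng1 (31.6), Mdm2 (21.1), Mdm4 (13.6), Trp53inp1 (12.4), Aen (9.91), Phlda3 (8.94) and Zmat3 (2.45). The range over mice of each gene overlapped that of the next in this order. The genes were measured in the same mice, so overlapping ranges do not show that neighbours were alike. The order within each mouse was not tested. Sesn2 ran from 8.59 to 95.0 CPM per kb and Cdkn1a from 4.81 to 124, whereas Trp53 stayed between 20.7 and 39.4. Zmat3 was lowest, from 1.50 to 3.69 CPM per kb, and reached the range of Phlda3, which began at 1.92.

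Of the 45 pairs among the 10 genes, 29 had a positive Pearson r of log2 CPM over the 8 libraries and 10 an r of 0.6 or more. The same shares over all pairs of genes tested were not taken, so these counts have no background. These correlations are descriptions over 8 mice that share normalization and differ in cell makeup. Mdm2 and Cdkn1a, a feedback and an arrest target, were closest (r = 0.85, rho = 0.71), and only 1.03% of all genes followed Mdm2 as closely as Cdkn1a did. The relation was as close within genotypes (r = 0.92 over 7 mice) and with the 2 mice of most extreme Mdm2 left out (r = 0.92). Ccng1 joined them, with r = 0.77 to Mdm2 (2.99% of all genes as close) and 0.74 to Cdkn1a (4.23%). These became 0.60 and 0.59 with the 2 most extreme mice for Mdm2 and for Cdkn1a left out. Sesn2 had r = 0.73 to Cdkn1a, 0.67 to Mdm2 and 0.63 to Ccng1. Of all genes, 4.73%, 7.02% and 12.0% followed Cdkn1a, Mdm2 and Ccng1 as closely as Sesn2 did. With the 2 mice of most extreme Cdkn1a left out, Sesn2 had r = 0.43 to Cdkn1a, so that relation rested in large part on those mice.

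Over all 8 mice Trp53 had r of 0.08 to Mdm2, -0.31 to Cdkn1a, -0.30 to Ccng1 and -0.32 to Sesn2, and its closest member was Aen (r = 0.46). These values rested on the 2 mice of most extreme Trp53, without which they were 0.74, 0.34, 0.70 and 0.26. The remaining pairs at 0.6 or more were Mdm4 with Trp53inp1 (r = 0.71) and Phlda3 (r = 0.66), Ccng1 with Trp53inp1 (r = 0.64), and Phlda3 with Zmat3 (r = 0.73, or 0.19 with the 2 mice of most extreme Phlda3 left out). Phlda3 and Zmat3 followed the B-cell marker sum (r = 0.74 and 0.57) and went against the neutrophil sum (r = -0.55 and -0.61). The neutrophil sum had r = 0.82 to Mdm2, 0.66 to Cdkn1a, 0.33 to Ccng1 and 0.30 to Sesn2. Whether B-cell content or neutrophil RNA contributed to these levels was not tested. The genes whose pattern over the 8 libraries was most like Trp53 were Slc35b4 (r = 0.989), Papd7 (r = 0.970) and Osgep (r = 0.969). Those most like Cdkn1a were Rn7sk (r = 0.984), Zbtb18 (r = 0.969) and Rit1 (r = 0.966). For each gene these were picked as the highest of 13172 correlations over 8 libraries, so their size alone is no sign of a relation.

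**Figure D5:**
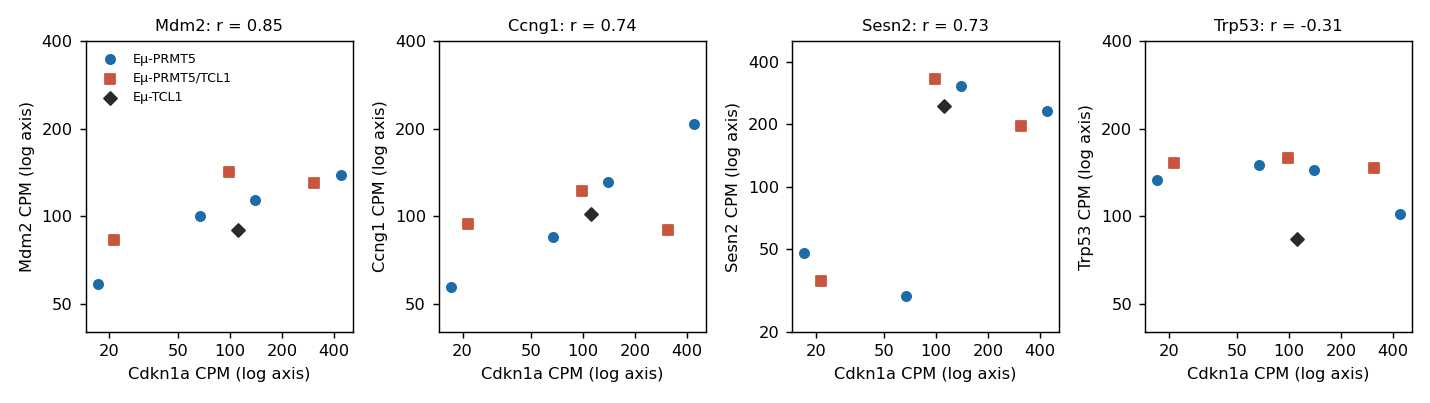
CPM of Mdm2, Ccng1, Sesn2 and Trp53 against CPM of Cdkn1a (log axes), with 1 point per mouse and the Pearson r of log2 CPM over the 8 mice above each panel. Mdm2 (r = 0.85) rises with Cdkn1a, Sesn2 (r = 0.73) falls into a high and a low set, and Trp53 (r = -0.31) keeps to a narrow range.

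The cell cycle genes that p53 lowers through p21 and the DREAM repressor complex complete the arrest arm. All 18 on the list were tested, and 0 passed the adjusted or the unadjusted threshold in either direction in any of the 3 comparisons. Of all genes, 2.17%, 6.78% and 6.09% passed the unadjusted one, in the order used above. The list medians of the log2 fold change were -0.11, 1.04 and 0.90, against -0.093, 0.042 and -0.073 for all genes. Against the Eµ-TCL1 mouse, 11 of the 18 were higher in all 3 Eµ-PRMT5/TCL1 mice (27.6% of all genes) and 1 lower (39%). In the other comparisons 0 of the 18 separated the groups. Their summed level was 479, 302, 883 and 5363 CPM in Eµ-PRMT5 mice 1 to 4, 1878, 957 and 1933 CPM in Eµ-PRMT5/TCL1 mice, and in the Eµ-TCL1 mouse 900 CPM. Eµ-PRMT5 mouse 4 thus stood above all others, while Eµ-PRMT5 mice 1 to 3 lay below the Eµ-TCL1 mouse. The median of 1.04 therefore does not describe each Eµ-PRMT5 mouse, and it was not taken without mouse 4. Cdkn1a went against this sum only loosely (r = -0.31, rho = -0.40), and Sesn2 and Trp53inp1 more closely (r = -0.70 and -0.72). Mouse 3 of Eµ-PRMT5, with the least Cdkn1a, had an intermediate sum of 883 CPM.

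Of 35 other p53 targets, 29 were tested and none passed the adjusted threshold. Between the replicated genotypes an unadjusted p under 0.05 was reached by 0 that were higher and 2 that were lower, against 2.17% of all genes. Ddb2, which recognizes UV damage in DNA, measured 23.5, 26.4, 30.1 and 18.9 CPM in Eµ-PRMT5 and 4.59, 10.2 and 12.8 CPM in Eµ-PRMT5/TCL1 mice, without overlap, as were 1.59% of all genes (log2 fold change -1.43, SE 0.48, edgeR unadjusted p = 0.012, adjusted p = 1.0). Sesn1, the sister of Sesn2, measured 77.2 ± 29.5 CPM (SD, n = 4) and 39.7 ± 16.1 CPM (SD, n = 3), with overlap (log2 fold change -0.96, SE 0.41, edgeR unadjusted p = 0.0378, adjusted p = 1.0). Fdxr, a mitochondrial reductase, went the other way without overlap, as were 1.35% of all genes. It measured 9.94 to 21.9 CPM in Eµ-PRMT5 and 22.4 to 26.7 CPM in Eµ-PRMT5/TCL1 mice (log2 fold change 0.77, SE 0.44, edgeR unadjusted p = 0.104). Ddb2 and Fdxr were the only genes of the list that separated these genotypes. The median of the list was -0.13, against -0.093 for all genes.

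The Eµ-TCL1 mouse stood apart most in Plk2, a polo-like kinase, at 624 CPM against 10.8 to 65.8 CPM in the 7 other mice. The log2 fold change was -4.19 (SE 0.65, edgeR adjusted p = 0.13) for Eµ-PRMT5 and -4.77 (SE 0.72, edgeR adjusted p = 0.275) for Eµ-PRMT5/TCL1 mice. The excision repair nuclease gene Ercc5 was also higher in that mouse, at 159 CPM against 31.6 to 73.4 CPM. Fdxr was lower there, at 4.87 CPM against 9.94 to 26.7 CPM. These made up the genes of the list with an unadjusted p under 0.05 against that mouse, 0 up and 2 down for the Eµ-PRMT5 group and 1 up and 2 down for the Eµ-PRMT5/TCL1 group, where 6.78% and 6.09% of all genes reached it, so that 2 or 3 of 29 is near the background. The list medians were 0.12 and -0.26, against 0.042 and -0.073 for all genes.

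None of the best known apoptotic targets passed the threshold between the replicated genotypes. Bax, the pore-forming effector, measured 191 ± 75.2 CPM (SD, n = 4) and 142 ± 13.5 CPM (SD, n = 3), with a log2 fold change of -0.42 (SE 0.37, edgeR adjusted p = 1.0). Bbc3, which encodes Puma, ran from 6.38 to 94.6 CPM, its lowest and highest mice being Eµ-PRMT5 mice 3 and 1 as for Cdkn1a (log2 fold change -0.52, SE 0.78, edgeR adjusted p = 1.0). The death receptor gene Fas was lowest, at 4.26 CPM, in Eµ-PRMT5 mouse 1, where Cdkn1a was highest (log2 fold change 0.24, SE 0.79, edgeR adjusted p = 1.0).

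Of 22 regulators of p53, 18 were tested, with list medians of -0.18, -0.095 and -0.13, against -0.093, 0.042 and -0.073 for all genes. An unadjusted p under 0.05 (edgeR) was reached by 2.17%, 6.78% and 6.09% of all genes in the 3 comparisons. On the list it was reached by 1 gene in 1 comparison, higher in Eµ-PRMT5 mice than in the Eµ-TCL1 mouse. This was Wdr77, the partner of PRMT5 in its active complex, at 29.6, 80.3, 53.6 and 59.4 CPM in Eµ-PRMT5 mice 1 to 4 against 19.7 CPM for the Eµ-TCL1 animal (log2 fold change 1.50, SE 0.64, edgeR adjusted p = 0.709). The mouse gene Prmt5, ortholog of the transgene, measured 128, 171, 62.7 and 235 CPM in Eµ-PRMT5, 110, 115 and 126 CPM in Eµ-PRMT5/TCL1 mice, and in the Eµ-TCL1 mouse 79.5 CPM. Whether transgene reads, which are human, could fall on it is not given in the sources used here, so it does not check the genotype labels. Cdkn2a, which encodes the Mdm2 antagonist Arf, had no value in at least 1 library and was not tested.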

How the data were processed

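Raw counts by gene symbol, 1 column per mouse and neither normalized nor pooled, are what the authors deposited. The submitters' processing notes name featureCounts of Subread, GRCm38 and DESeq2 1.20.0. Aligner, annotation and strand setting are not given in the sources used here, and the labels and the study's methods name different library kits. Groups are the genotypes of the labels. Of the matrix, 36919 cells hold NA, which was not read as 0, so 14072 symbols, those without NA, were used. Among the rows, 26 carry a date instead of a gene name (at most 0.179% of a library's counts).

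Counts were fitted with edgeR 4.0.16 in R 4.3.3 (TMM factors, filterByExpr, 1 coefficient per genotype over 8 libraries, quasi-likelihood test, Benjamini-Hochberg adjustment over 13173 genes, threshold 0.05). With 1 Eµ-TCL1 mouse, the spread comes from the replicated groups (biological coefficient of variation 0.483). SE is the log2 fold change over the root of F. CPM are TMM-normalized. Correlations and SDs use log2 CPM with a prior count of 2. The code was tested on simulated data.

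The members and gene lists were chosen with earlier results of these data known. Named were the 10 genes, the 3 genes of largest change among other p53 targets, regulators and cell cycle genes (not cell markers) with an unadjusted p under 0.05 in each comparison, Prmt5, Bax, Bbc3, Fas and Cdkn2a, and the 3 genes most like Trp53 and Cdkn1a. Same-numbered mice of the replicated genotypes are different animals, so the numbers were not taken as pairs in the main fit. Their deviations correlated at -0.021, 0.154 and 0.160, and those of differently numbered mice at -0.102 to 0.106. Whether the number marks anything the mice share was not tested. Alternatives were DESeq2 1.42.0, library size only, upper-quartile factors, fits without a filter or with at least 10 counts in each library, only the 2 groups compared, NA counted as 0, each mouse left out, and the replicate number as a block. Positions and exon lengths are from GENCODE vM21 and promoter windows from RefSeq (GRCm38.p6). Python 3.11.15 was used. All replicates are separate mice. The reads carry no molecular identifiers in these descriptions, so counting error is a lower limit.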

Additional observations from a re-analysis of the deposited data

How the results depend on the processing

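The count of p53 group genes called stayed at 0 in all 3 comparisons under every alternative run. Of 460 alternative log2 fold changes of the 10 genes, 418 kept their direction (221 of 240 under other settings, 197 of 220 with a mouse left out), and none of those that turned had been called. Between the replicated genotypes, upper-quartile factors gave 0.0049 for Mdm4 and 0.035 for Phlda3, and NA counted as 0 gave 0.031 for Phlda3. Leaving out each mouse gave -0.33 to 0.092 for Mdm4, -1.47 to 0.95 for Cdkn1a, -0.47 to 0.18 for Ccng1, -0.43 to 0.79 for Phlda3, -0.31 to 0.32 for Aen, -0.41 to 0.87 for Sesn2 and -0.15 to 0.29 for Zmat3. For Eµ-PRMT5 mice against the Eµ-TCL1 mouse, library size only gave -0.081 for Mdm2 and -0.055 for Ccng1, and NA counted as 0 gave 0.11 for Mdm4. Leaving out each mouse gave -0.47 to 0.95 for Cdkn1a, -0.059 to 0.46 for Ccng1 and -0.19 to 0.017 for Mdm4. For Eµ-PRMT5/TCL1 mice against it, Ccng1 became 0.084 with DESeq2, 1.4e-05 without a filter, 0.029 with at least 10 counts, 0.12 with only the 2 groups and 0.29 with NA counted as 0, which also gave 0.089 for Mdm4. Leaving out each mouse gave -0.15 to 0.12 for Ccng1, -0.90 to 0.87 for Cdkn1a and -1.09 to 0.099 for Sesn2. The cause of these turns was not tested.

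With the replicate number as a block over mice 1 to 3, 0 of the 10 genes passed the adjusted threshold in each comparison. Between the replicated genotypes, Trp53inp1 had -1.16 (edgeR unadjusted p = 0.0181). Against the Eµ-TCL1 mouse, Cdkn1a had 1.86 in Eµ-PRMT5 and 1.61 in Eµ-PRMT5/TCL1 mice (SE 0.53 in each), where the main fit gave 0.57 and 0.36. The Eµ-TCL1 mouse carries the number 1, so the block sets it against the fitted level of the mice numbered 1 and not of their genotypes. In those mice Cdkn1a measured 440 and 309 CPM, against 111 CPM in the Eµ-TCL1 mouse. The block fit gave -0.18 for Sesn2, -0.086 for Zmat3 and 0.12 for Aen between the replicated genotypes. There its SE was 0.32 for Cdkn1a and 0.31 for Sesn2, against 0.97 and 0.73 for the same mice without the block. Against the Eµ-TCL1 mouse the block fit gave 0.0083 for Mdm4 and -0.12 for Aen in Eµ-PRMT5 mice. In Eµ-PRMT5/TCL1 mice it gave 0.41 for Ccng1 and -0.0051 for Aen against that mouse. Over all genes it passed 808, 1033 and 1175 at an unadjusted p under 0.05, against 760, 791 and 1190 for the same mice without it.

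Library size in place of TMM raised the CPM of the Eµ-TCL1 mouse to 97.1 for Trp53, 104 for Mdm2, 259 for Mdm4, 129 for Cdkn1a, 118 for Ccng1, 284 for Sesn2 and 92.4 for Trp53inp1, and moved the median log2 fold change of all genes against that mouse from 0.042 to -0.21 and from -0.073 to -0.30. On that scale, examined after seeing the data, the group means of Trp53 stayed above the Eµ-TCL1 mouse, but Eµ-PRMT5 mouse 1 (92.0 CPM) did not, and Aen was no longer higher in all 3 Eµ-PRMT5/TCL1 mice. The unadjusted p of Trp53inp1 rose above 0.05 with upper-quartile factors, library size only, at least 10 counts, only the 2 groups, NA counted as 0, or without Eµ-PRMT5 mouse 1 or 2, Eµ-PRMT5/TCL1 mouse 1 or 2, or the Eµ-TCL1 mouse. The SDs within genotypes were also taken with library size only and with each mouse left out, a choice made after seeing the data. These put Trp53 at percentile 6.1 and Cdkn1a at 99.2 with library size only. In Eµ-PRMT5/TCL1 mice against the Eµ-TCL1 mouse, the log2 fold change of Trp53 ran from 0.83 to 0.99 with each mouse left out. Its unadjusted p (edgeR) fell under 0.05 with only the 2 groups, with NA counted as 0 or without Eµ-PRMT5 mouse 1. The share of all genes under 0.05 in those fits is not set beside it here, so the fall cannot be judged. The 1 Eµ-TCL1 mouse limits what can be said of its genotype.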
